A study of Mus musculus with 12 samples.

Results

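Liver mRNA of Keap1-HKO mice was compared with that of wild-type mice across all measured genes, with attention to stress genes outside the drug-processing families. The comparison took 6 of the 12 arrays of the study, 3 labelled Keap1-hepatocyte knockout and 3 labelled Wildtype, and arrays were assigned to the groups by these labels. All mice were untreated males of 8 weeks, and each array held cRNA of 1 biological replicate on the Affymetrix mouse expression array. Keap1-HKO mice came from Keap1-KD mice, in which Keap1 is lowered in all tissues, and AlbCre+ mice, in which the albumin promoter drives Cre in hepatocytes. Liver cells other than hepatocytes therefore still carry the knockdown allele. Wild-type mice were C57BL/6, and the Keap1-KD line had been backcrossed into that background, while the background of the AlbCre+ line is not given in the sources used here. No group carried AlbCre alone, so that effects of the Cre transgene, or of a difference in strain between the lines, cannot be told apart from loss of Keap1. The other 6 arrays, of Nrf2-null and Keap1-KD mice, entered the fit only to estimate the spread.

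Keap1 holds the transcription factor Nrf2 in the cytosol and passes it to the proteasome through a ubiquitin ligase. Oxidants and electrophiles modify cysteines of Keap1, after which Nrf2 reaches the nucleus and binds antioxidant response elements together with small Maf proteins. Its known targets make and recycle glutathione and thioredoxin, supply NADPH and handle heme and iron. Other stress programs of the liver, such as the heat shock response, the unfolded protein response, the p53 response and the acute phase response, are run by other transcription factors.

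The arrays of Keap1-HKO mice were unequal. Keap1-HKO replicate 1 lay 0.785 from the median of its group (mean absolute log2 deviation over 5856 genes), against 0.177 and 0.072 for replicates 2 and 3 and 0.063 to 0.154 for the wild-type arrays. On replicate 1, 596 genes lay more than 1 log2 unit above the wild-type mean and 1245 more than 1 below, against 175 and 141 on replicate 2 and 153 and 114 on replicate 3. Nrf2-null replicate 1 stood apart from its own group too, with a deviation of 0.487 and with 138 and 788 such genes. That array enters the spread behind every call. Keap1-HKO replicates 2 and 3 held another signal. The median of 19 pancreas acinar enzyme genes was 13.1 and 9.77 (log2 intensity) on these arrays, 2.50 on Keap1-HKO replicate 1 and 2.30 to 2.49 outside this genotype. A list of 13 skeletal muscle genes had medians of 10.8 and 9.44 there, 10.3 in wild-type replicate 2 and 2.31 to 2.93 on the remaining 9 arrays, and 0 of its members were called by limma, by Duncan's multiple range test or at an unadjusted p under 0.05. Of 28 genes that lay at least 3 log2 units over the wild-type mean on both replicates 2 and 3 and less than 1 over it on replicate 1, 27 belong to the pancreas and muscle lists, and none was called. Calls of single genes and medians of gene lists are given without 1 of these arrays where that ends the call or moves the median by over 1.5 times.

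**Figure D1:**
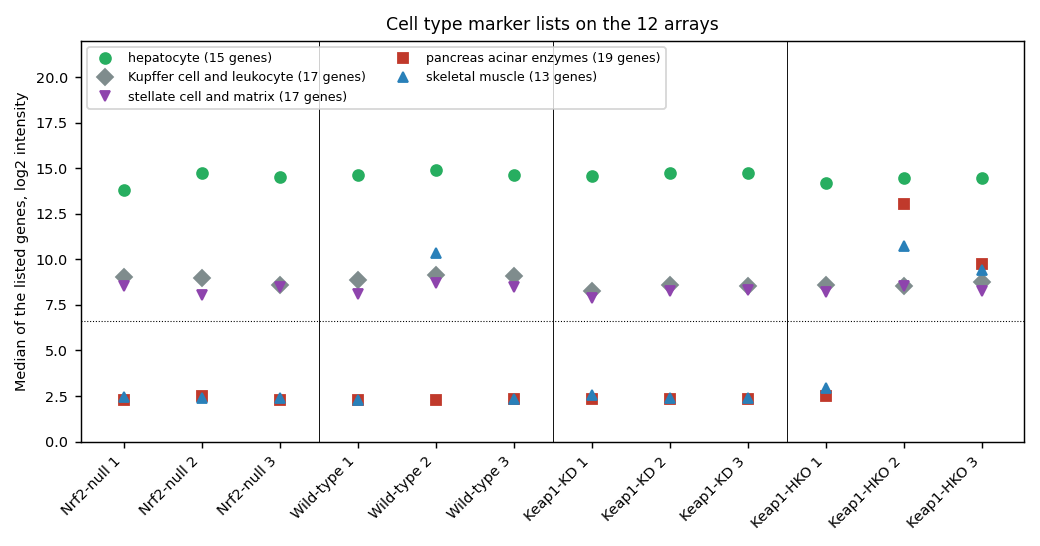
Median log2 intensity (y axis) of 5 lists of cell type marker genes on each of the 12 arrays (x axis), grouped by genotype. Each point is 1 list on 1 array, and the dotted line marks an intensity of 100. Pancreas enzyme genes stood at 13.1 and 9.77 on Keap1-HKO replicates 2 and 3 and at or under 2.50 elsewhere, while hepatocyte, Kupffer cell and stellate cell lists lay at similar levels on all arrays.

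The tissue label was borne out by hepatocyte genes. Alb, which encodes albumin, read 16.29 to 16.33 (log2 intensity) on the wild-type arrays and 16.22 to 16.45 on the Keap1-HKO arrays, and Ttr, which encodes transthyretin, read 16.44 to 16.59 and 16.51 to 16.58. Of 15 hepatocyte genes 0 were called by limma, with 1 higher and 3 lower at an unadjusted p under 0.05 and the same counts by Duncan's multiple range test. Apob, the main protein of very low density lipoprotein, read 11.19 on Keap1-HKO replicate 1 and 14.22 to 14.78 on the other arrays of both genotypes. On Nrf2-null replicate 1 it read 11.86. Of 17 Kupffer cell and leukocyte genes 0 were called, with 0 higher and 1 lower at an unadjusted p under 0.05 and 0 and 0 by Duncan's test, and of 15 liver endothelium genes 0 were, with 1 and 0 at an unadjusted p under 0.05 and 0 and 0 by Duncan's test. Of 17 stellate cell and matrix genes 1 was called, where 3.94% of all genes were. This was Mmp14, a membrane matrix metalloproteinase, with a log2 difference of −1.43 (adjusted p = 0.000444 by limma). At an unadjusted p under 0.05, 1 gene of this list was higher and 5 were lower, where 9.39% of all genes were lower. Duncan's test gave 1 and 1. The median log2 difference of the list was −0.15, with 0.05 without Keap1-HKO replicate 1 and −0.52 with it as the only array of its genotype. In whole liver, fewer cells of a type and less RNA per cell cannot be told apart.

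Of 5856 genes, 231 were called by limma at a Benjamini-Hochberg adjusted p under 0.05 (3.94%), 123 of them higher (2.10%) and 108 lower (1.84%) in Keap1-HKO mice. For comparison, 1612 genes had all 3 Keap1-HKO arrays beyond all 3 wild-type arrays (27.5%), and the 231 were all among these. By this measure 12.7% of all genes lay higher and 14.9% lower. The smallest called change was 0.43 on the log2 scale. An unadjusted p under 0.05 was reached by 9.26% of all genes with a higher and 9.39% with a lower level, and Duncan's test called 5.70% and 6.30%. Counts within gene lists below stand against these shares and against those of limma calls and of arrays without overlap. Drug-processing enzymes and transporters held 30 of the called genes, 27 higher and 3 lower, among 147 measured (20.4%). The remaining 201 calls, 96 higher and 105 lower among 5709 genes (3.52%), lay outside those families and are described below. Alcohol dehydrogenases, which the paper lists with phase-I genes, were not among the families used here. Without Keap1-HKO replicate 1, 190 of the 231 genes kept their call and 272 genes were called in all, 133 higher (2.27%) and 139 lower (2.37%). The 133 include 18 of the 19 pancreas acinar enzyme genes, of which 1 was called with all arrays. All 231 had the same direction against the wild-type mean on each of the 3 Keap1-HKO arrays, which follows from the absence of overlap and is no separate check. With only the 6 arrays of both genotypes in the fit 49 genes were called, all among the 231, and without wild-type replicate 1, 2 or 3 the counts were 132, 105 and 89. Many calls described below ended in the fit of these 6 arrays, among them those of Slc48a1, Plekhb1, Gbe1, Ppp1r3b, C8b and Hsd3b5. In total 84 genes, 54 higher and 30 lower, were called whichever of the 12 arrays was left out, and 62 of these lay outside the drug-processing families.

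**Figure D2:**
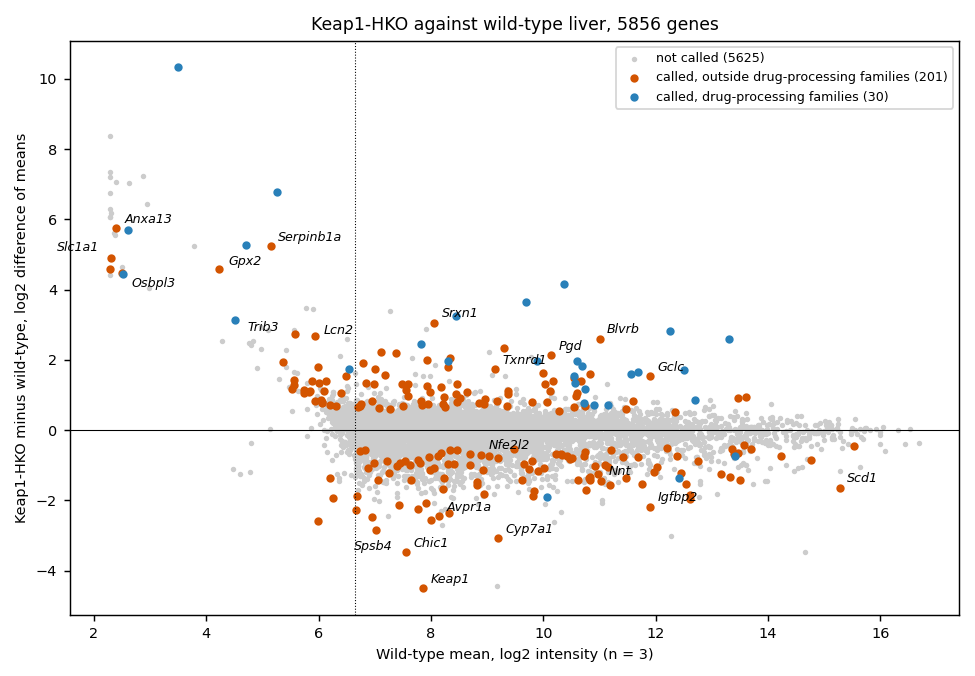
Log2 difference of means, Keap1-HKO minus wild-type (y axis), against the wild-type mean log2 intensity (x axis) for 5856 genes. Gray points were not called, orange points are the 201 called genes outside the drug-processing families and blue points the 30 within them; the dotted line marks an intensity of 100. The called falls reach −4.51 (Keap1), and many of the steepest rises start from wild-type means left of the dotted line.

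**Figure D3:**
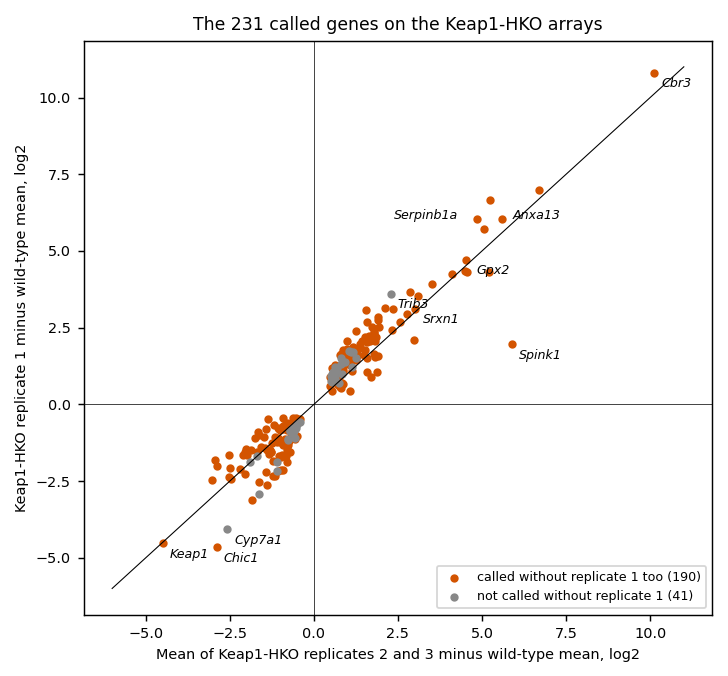
For the 231 called genes, the difference from the wild-type mean on Keap1-HKO replicate 1 (y axis, log2) against the mean difference on replicates 2 and 3 (x axis, log2), with the line of equality. Orange points (190) were also called without replicate 1 and gray points (41) were not. All points lie in the lower left or upper right quadrant, which follows from the absence of overlap between the arrays of both genotypes. Spink1, a pancreas transcript, lies far below the line.

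Keap1 mRNA, the target of the deletion, read 7.97, 7.80 and 7.81 (log2 intensity) on the wild-type arrays and 3.34, 3.39 and 3.34 on the Keap1-HKO arrays. The groups were far apart and each varied little. Keap1 mRNA fell by 4.51 on the log2 scale (SE 0.15, adjusted p = 2.98e-08 by limma). Against an intensity of 100 it was at least 2.33-fold lower. The paper used this intensity to select probe sets, and values under it may hold mainly background. Bounds of this kind compare the mean un-logged intensity with 100, while log2 differences compare log2 means. Nfe2l2, which encodes Nrf2 itself, read 8.81, 8.94 and 8.93 on the wild-type arrays and 8.11, 7.93 and 8.54 on the Keap1-HKO arrays. Its mRNA fell by 0.70 on the log2 scale (SE 0.17, adjusted p = 0.048), a call that held in 1 of the 12 fits that each left out 1 array, that without Keap1-HKO replicate 3, with adjusted p from 0.0041 to 0.24 over all alternatives. Of 7 measured genes of small Maf, Bach and Nrf2 partner proteins these 2 were called, both lower. Keap1 is the target of the deletion, so that its fall was set by the design and does not count toward the list. Nfe2l2 was the only other member called, where 1.84% of all genes were called lower. The median log2 difference of the list was −0.01, as over all genes (−0.01), and 0.29 without Keap1-HKO replicate 1.

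The first group described is that of glutathione. Of 15 measured members of a list of glutathione synthesis and peroxidases, 4 were called higher and 0 lower, where 2.10% of all genes were called higher, and the median log2 difference was 0.41. Without Keap1-HKO replicate 1 the median was 0.22, and 4 members were called higher and 1 lower. The genes called were Gclc, Gss, Gsr and Gpx2. Gpx2 is measured here only because it passed an intensity of 100 in Keap1-HKO mice, so that its call does not count toward the list. Gclc, Gss and Gsr passed it in wild-type mice as well. Gclc, the catalytic subunit of glutamate-cysteine ligase and the rate-limiting step, read 12.11, 11.60 and 11.99 on the wild-type arrays and 13.52, 13.37 and 13.42 on the Keap1-HKO arrays. Its mRNA was 2.91-fold higher (log2 difference 1.54, SE 0.17, adjusted p = 0.000776). Gss, glutathione synthetase, which adds glycine in the final step, read 8.27, 8.23 and 8.18 against 9.29, 9.03 and 9.17, and its mRNA was 1.92-fold higher (log2 difference 0.94, SE 0.15, adjusted p = 0.0074). The modifier subunit of the ligase, Gclm, singled out here after its values were seen, read 11.75, 11.56 and 11.56 against 11.42, 11.70 and 11.98. The groups overlapped, and the log2 difference of 0.08 had an interval of −0.28 to 0.44 (95%, adjusted p = 0.778).

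Glutathione is returned to its reduced form by glutathione reductase, encoded by Gsr, which read 9.55, 9.22 and 9.36 on the wild-type arrays and 10.46, 10.54 and 10.46 on the Keap1-HKO arrays. Its mRNA was 2.16-fold higher (log2 difference 1.11, SE 0.14, adjusted p = 0.00245). Gpx2, a glutathione peroxidase known from the gut epithelium, read 4.22, 4.22 and 4.26 in wild-type liver, below the limit of 6.64 that corresponds to an intensity of 100. In Keap1-HKO mice it read 8.94, 9.001 and 8.52, a rise of 4.59 (SE 0.20, adjusted p = 3.41e-07), and it was at least 4.56-fold higher. Its wild-type arrays all lay under that limit and its Keap1-HKO arrays all above it. The Gclc, Gsr and Gpx2 calls held under all alternatives run, and the Gss call ended only in the fit of the 6 arrays of both genotypes (adjusted p = 0.0672). Among the 11 members not called the log2 differences ran from −1.63 to 0.87.

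In the thioredoxin branch, 2 of 16 measured members were called, both higher, where 2.10% of all genes were, and the median log2 difference was 0.28. That median was 0.10 without Keap1-HKO replicate 1 and 0.59 with it as the only array of its genotype. Srxn1 encodes sulfiredoxin, which repairs peroxiredoxins inactivated by peroxide. It read 7.97, 7.97 and 8.23 on the wild-type arrays and 11.18, 11.12 and 11.03 on the Keap1-HKO arrays, with no overlap and little spread in either group. Its mRNA was 8.31-fold higher (log2 difference 3.05, SE 0.15, adjusted p = 1.35e-06). Txnrd1, the cytosolic thioredoxin reductase, read 9.18, 9.13 and 9.11 against 10.79, 10.95 and 10.89, and was 3.33-fold higher (log2 difference 1.74, SE 0.12, adjusted p = 1.79e-05). Both calls held under all alternatives run. Thioredoxin itself, Txn1, named after its values were seen, just missed the test with a log2 difference of 0.60 (SE 0.15, adjusted p = 0.0507), and it was called without Keap1-HKO replicate 1 (adjusted p = 0.0491). Of 8 genes of superoxide and hydrogen peroxide removal, 0 were called by limma, with 1 higher and 0 lower at an unadjusted p under 0.05 and 0 and 0 by Duncan's test. Sod1, the cytosolic superoxide dismutase, differed by 0.40 (SE 0.16, adjusted p = 0.219).

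**Figure D4:**
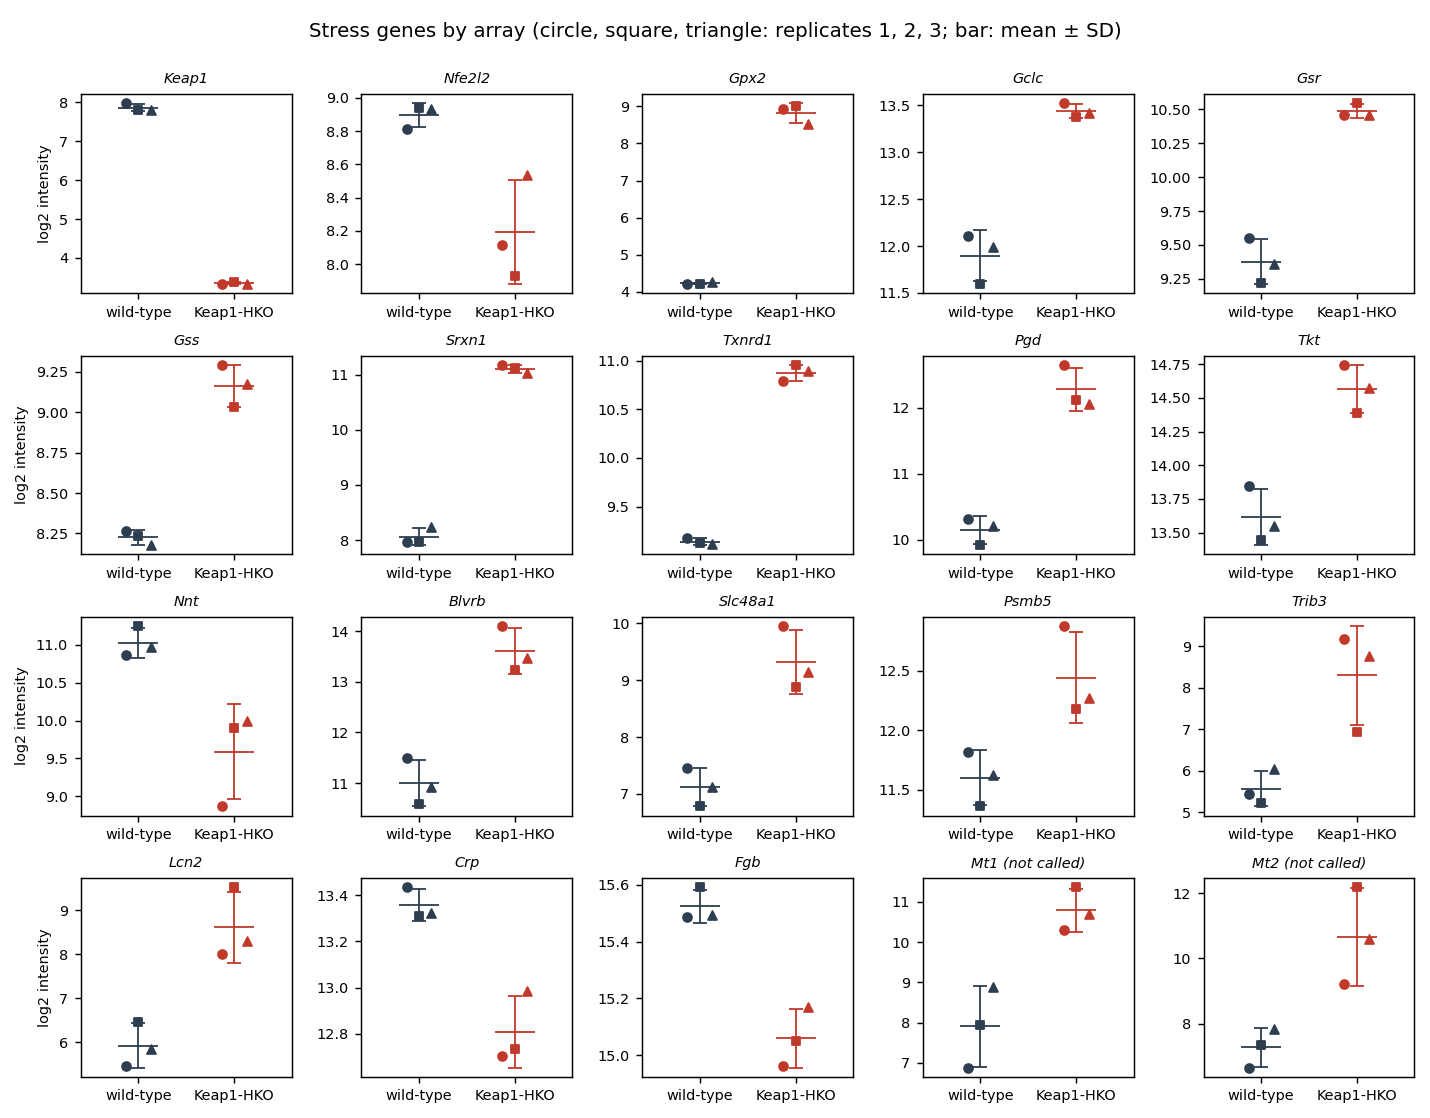
Log2 intensity (y axis, its range set for each gene) of 20 stress genes on the 3 wild-type and 3 Keap1-HKO arrays (x axis). Circles, squares and triangles are replicates 1, 2 and 3, and bars give the mean ± SD (n = 3). The groups do not overlap for any of the 20, and Mt1 and Mt2, whose arrays spread widely, were not called.

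The sequence before the start of these genes was searched for the core antioxidant response element, TGACNNNGC, on both strands of the 250 bases upstream of each RefSeq start (assembly GRCm38.p6). Of the 123 genes called higher 101 had an entry, and 20 of them held the motif (19.8%). It stood before 13 of 90 genes called lower (14.4%), 688 of 4822 genes tested (14.3%) and 3112 of 27025 RefSeq genes (11.5%). The first letters are shared with sites of AP-1 type factors, so that 1 stretch can match both. A match describes the letters only, and a window without one says nothing of Nrf2. Of the genes described here by the size of their change or as stress genes, Txnrd1, Psmb5 and Fitm1 held it, and their windows are shown with that of Pir, an iron-binding protein whose gene was added after its values were seen (log2 difference 1.23, adjusted p = 0.00481). Slc20a1, a phosphate transporter described with the rises, held the motif too, 165 bases before its start, and its window is shown last. Capitals mark the motif, which lies on the opposite strand in Txnrd1, Fitm1, Pir and Slc20a1. Each window is written 5′ to 3′ in the direction of its gene.
Txnrd1, chr10:82859084-82859152, plus strand: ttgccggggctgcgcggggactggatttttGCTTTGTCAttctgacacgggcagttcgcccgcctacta
Psmb5, chr14:54618004-54618072, minus strand: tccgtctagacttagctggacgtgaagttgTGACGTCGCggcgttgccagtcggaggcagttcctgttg
Fitm1, chr14:55575424-55575490, plus strand: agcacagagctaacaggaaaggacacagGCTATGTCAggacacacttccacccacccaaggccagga
Pir, chrX:164269187-164269255, plus strand: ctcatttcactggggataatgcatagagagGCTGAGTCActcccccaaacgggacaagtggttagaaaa
Slc20a1, chr2:129206901-129206969, plus strand: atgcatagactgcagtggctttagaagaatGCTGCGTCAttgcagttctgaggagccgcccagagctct
The motif began 92 bases before the start of Txnrd1, 47 before that of Psmb5, 222 before that of Fitm1 and 214 before that of Pir.

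Enzymes that supply NADPH moved both ways, with 2 called higher and 1 lower of 13 measured, where 2.10% and 1.84% of all genes were. The median log2 difference was 0.33, and 0.20 without Keap1-HKO replicate 1. Pgd, 6-phosphogluconate dehydrogenase, which makes NADPH in the pentose phosphate pathway, read 10.31, 9.91 and 10.20 in wild-type liver and 12.65, 12.12 and 12.06 in Keap1-HKO liver, and was 4.39-fold higher (log2 difference 2.13, SE 0.28, adjusted p = 0.00275). All 3 further probe sets of Pgd lay higher too, by 2.01 to 2.30. Tkt, transketolase of the same pathway, read 13.85, 13.44 and 13.55 against 14.74, 14.38 and 14.58, a 1.94-fold difference (log2 difference 0.95, SE 0.17, adjusted p = 0.0128). Nnt, the mitochondrial transhydrogenase that makes NADPH from NADH, read 10.87, 11.25 and 10.97 against 8.86, 9.90 and 9.997. Its mRNA fell by 1.44 on the log2 scale (SE 0.28, adjusted p = 0.0181), and its other probe set differed by −1.50. The C57BL/6J substrain is known to carry a deletion within Nnt, and the substrain of these mice is not given in the sources used here. The Tkt and Nnt calls ended without wild-type replicate 2 or 3 and with only the 6 arrays of both genotypes (largest adjusted p 0.102 and 0.17).

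Of 25 measured genes of iron, heme and bile pigment handling, 2 were called, both higher, where 2.10% of all genes were called higher. The median log2 difference was 0.08, and −0.04 without Keap1-HKO replicate 1. Blvrb, biliverdin reductase B, which acts on products of heme breakdown, read 11.50, 10.59 and 10.92 on the wild-type arrays and 14.11, 13.22 and 13.48 on the Keap1-HKO arrays. It was 6.07-fold higher (log2 difference 2.60, SE 0.29, adjusted p = 0.000776). Slc48a1, a heme transporter of the lysosome membrane, read 7.45, 6.78 and 7.12 against 9.96, 8.88 and 9.14, a 4.63-fold difference (log2 difference 2.21, SE 0.27, adjusted p = 0.00144). For both genes the lowest Keap1-HKO array stood well above the highest wild-type array. The log2 differences of the 23 members not called ran from −1.40 to 0.79. Alas2, the first enzyme of heme synthesis in red cell precursors and the only measured gene of the blood cell list, fell by 1.42 (SE 0.27, adjusted p = 0.0178), a call that ended without Keap1-HKO replicate 3 or any 1 of the wild-type arrays.

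The proteasome degrades ubiquitinated proteins, Nrf2 included, and 45 of its subunit and activator genes were measured. Only Psmb5, a catalytic subunit, was called, where 2.10% of all genes were called higher. It read 11.82, 11.36 and 11.62 on the wild-type arrays and 12.88, 12.17 and 12.27 on the Keap1-HKO arrays, and was 1.79-fold higher (log2 difference 0.84, SE 0.20, adjusted p = 0.0409). The call held in 2 of the 12 fits that each left out 1 array, those without Keap1-HKO replicate 1 (adjusted p = 0.0497) or replicate 2, and the adjusted p ran from 0.00396 to 0.258 over all alternatives. The median log2 difference of the list was 0.14 with all arrays and 0.00 without Keap1-HKO replicate 1. With Keap1-HKO replicate 1 as the only array of its genotype the median was 0.47, beside 0.12 over all genes, and 21 members were called higher and 3 lower, but that fit called 26.6% of all genes higher and 25.5% lower and takes the spread of the lone array from the other groups.

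The lists of other stress programs are short, and with 3.94% of all genes called, no calls or 1 in such a list is near the background. Of 30 heat shock proteins and cochaperones 0 were called by limma, with a median log2 difference of 0.02 (0.13 without Keap1-HKO replicate 1). At an unadjusted p under 0.05 and by Duncan's test alike, 1 of them was higher and 0 lower. Bag3, a cochaperone of Hsp70 and a target of the heat shock factor, differed by 0.41 (SE 0.21, adjusted p = 0.331) and its groups overlapped. Of 29 genes of endoplasmic reticulum stress 0 were called, with 4 higher and 0 lower both at an unadjusted p under 0.05 and by Duncan's test. The lowest adjusted p there was that of Sdf2l1, a chaperone component of the endoplasmic reticulum, with a log2 difference of 0.90 (SE 0.26, adjusted p = 0.0971). Of 13 genes of DNA damage and growth arrest 0 were called, with 0 higher and 1 lower at an unadjusted p under 0.05 and 0 and 2 by Duncan's test, and the median was −0.22 (−0.04 without Keap1-HKO replicate 1). Of 15 interferon response genes 0 were called, with 1 higher and 2 lower at an unadjusted p under 0.05, 0 and 1 by Duncan's test, and a median of −0.26.

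Autophagy genes include Sqstm1, which encodes the cargo receptor p62, a protein that binds Keap1. Sqstm1 read 10.44, 10.24 and 10.49 in wild-type liver and 11.49, 10.74 and 10.74 in Keap1-HKO liver. The arrays did not overlap, but the log2 difference of 0.60 (SE 0.23, adjusted p = 0.204) missed the test, and without Keap1-HKO replicate 1 it was 0.35. Of 25 genes of autophagy and lysosome regulation 0 were called, with 1 higher and 1 lower at an unadjusted p under 0.05 and 0 and 0 by Duncan's test. The integrated stress response, through which Atf4 answers amino acid shortage and misfolded protein, held 1 call among 19 measured genes, Trib3, a pseudokinase known as an Atf4 target. Trib3 read 5.43, 5.22 and 6.05 on the wild-type arrays, all below an intensity of 100, and 9.18, 6.93 and 8.77 on the Keap1-HKO arrays. It was at least 3.80-fold higher (log2 difference 2.73, SE 0.62, adjusted p = 0.0377). This call ended without any 1 of 8 arrays, Keap1-HKO replicates 1 and 3, Keap1-KD replicates 2 and 3, Nrf2-null replicate 3 and the 3 wild-type arrays, and its adjusted p ran from 0.00669 to 0.346. It also ended when lower values were set to 100, with array weights and with only the 6 arrays of both genotypes.

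Metallothioneins bind zinc and copper and are induced by metals and glucocorticoids. Mt1 read 6.88, 7.95 and 8.89 on the wild-type arrays and 10.30, 11.36 and 10.70 on the Keap1-HKO arrays, and Mt2 read 6.65, 7.33 and 7.83 against 9.20, 12.19 and 10.58. All Keap1-HKO arrays lay above all wild-type arrays for both genes, yet neither passed the test. The log2 differences were 2.88 (SE 0.79, adjusted p = 0.0813) and 3.39 (SE 0.95, adjusted p = 0.0886), the largest standard errors among the stress genes described here. Without Keap1-HKO replicate 1 Mt2 was called (log2 difference 4.11, adjusted p = 0.0429) and Mt1 was not (adjusted p = 0.0912). That fit rests on Keap1-HKO replicates 2 and 3, the arrays that held the pancreas signal. Both genes read highest on replicate 2 and lowest on replicate 1, as the pancreas genes did, and whether this order has the same source was not tested. The list of 15 metallothionein and zinc or copper handling genes held 0 calls, with 3 higher and 1 lower at an unadjusted p under 0.05 and 2 and 0 by Duncan's test.

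Acute phase genes are induced in hepatocytes by cytokines. Of 24 measured, 1 was called higher and 2 lower, where 1.84% of all genes were called lower, and the median log2 difference was 0.16. Lcn2, lipocalin 2, which withholds iron from bacteria by binding siderophores, read 5.47, 6.47 and 5.84 in wild-type liver and 8.01, 9.53 and 8.29 in Keap1-HKO liver. It was at least 4.36-fold higher (log2 difference 2.68, SE 0.41, adjusted p = 0.00542), and the call ended only in the fit of the 6 arrays of both genotypes (adjusted p = 0.0838). Lcn2 also read highest on Keap1-HKO replicate 2 and lowest on replicate 1, as the pancreas genes did. Whether this order has the same source was not tested. Crp, C-reactive protein, read 13.44, 13.31 and 13.32 against 12.71, 12.73 and 12.99 and fell by 0.55 (SE 0.12, adjusted p = 0.0332). Fgb, the fibrinogen beta chain, read 15.49, 15.59 and 15.49 against 14.96, 15.05 and 15.17 and fell by 0.46 (SE 0.11, adjusted p = 0.0497). Both small falls depended on the arrays used, since the Crp call held in 2 of the 12 fits that each left out 1 array, those without Keap1-HKO replicate 3 or Nrf2-null replicate 1, and the Fgb call in 1, that without Nrf2-null replicate 1. The classical acute phase protein Saa1, named after its values were seen, differed by 0.41 (adjusted p = 0.672) with overlapping groups.

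**Figure D5:**
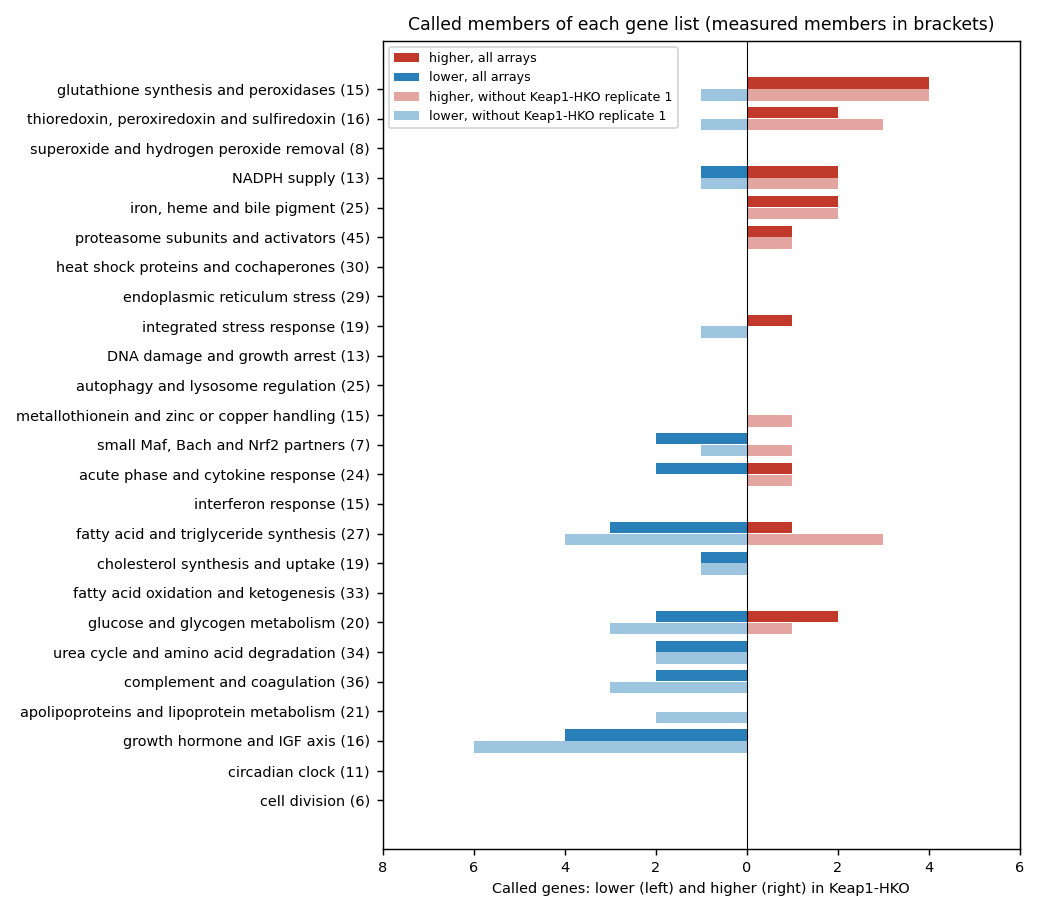
Number of called genes (x axis, lower to the left and higher to the right) in each of 25 gene lists (y axis, with the number of measured members in brackets). Dark bars are the fit to all 12 arrays and pale bars the fit without Keap1-HKO replicate 1. Glutathione genes were called only higher in the first fit (4 of 15), genes of the growth hormone and IGF axis only lower in both (4 of 16 and then 6), and heat shock and endoplasmic reticulum stress lists had no bar. The 4 glutathione genes include Gpx2, which is measured only because it was high in Keap1-HKO mice.

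Several of the steepest rises outside the drug-processing families belong to no stress list. Anxa13, an annexin, read 2.43, 2.38 and 2.35 on the wild-type arrays, near the bottom of the scale, and 8.43, 8.11 and 7.87 on the Keap1-HKO arrays. It rose by 5.75 (SE 0.47, adjusted p = 8.71e-05) and was at least 2.85-fold higher. Serpinb1a, an inhibitor of neutrophil serine proteases, read 5.89, 5.49 and 4.06 against 11.17, 8.997 and 10.98, a rise of 5.24 (SE 0.91, adjusted p = 0.0106) and at least 16.1-fold. Slc1a1, a transporter of glutamate, aspartate and cysteine, which supplies the amino acids of glutathione, read 2.30, 2.29 and 2.30 against 6.60, 7.74 and 7.27, a rise of 4.91 (SE 0.23, adjusted p = 6.62e-07) and at least 1.55-fold. Slc1a1 too read highest on Keap1-HKO replicate 2 and lowest on replicate 1, the order of the pancreas genes, and the source of that order was not tested. Osbpl3, an oxysterol-binding-protein-related lipid transfer protein, read 2.56, 2.31 and 2.62 against 6.81, 6.99 and 7.12, a rise of 4.47 (SE 0.12, adjusted p = 9.29e-09) and at least 1.26-fold.

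The deposited table holds probe sets that passed an intensity of 100 in at least 1 genotype, and Anxa13, Serpinb1a, Slc1a1, Osbpl3, Spink1 and Gpx2 passed it in Keap1-HKO mice only. They are in the table because they were high there, as were 151 genes in all, 28 of them called higher, so their number and their place among the rises are set in part by that filter. These rises share a wild-type level under an intensity of 100, which may hold mainly background. The log2 difference therefore states how far they stand above that level and not a true ratio. The Slc1a1 and Osbpl3 calls ended when lower values were set to an intensity of 100 (adjusted p = 0.203 and 0.142), and that of Serpinb1a without wild-type replicate 3 and with array weights (largest adjusted p 0.085). The Anxa13 call held under all alternatives run. Spink1, a trypsin inhibitor of the pancreas list, read 2.29 on each wild-type array and 4.25, 9.25 and 7.09 on the Keap1-HKO arrays. Its order, highest on replicate 2 and lowest on replicate 1, is that of the pancreas genes, and it was the only 1 of the 19 pancreas genes that was called (log2 difference 4.57, SE 0.92, adjusted p = 0.0215). The call ended without Keap1-HKO replicate 3 (adjusted p = 0.0639) or any 1 of the wild-type arrays, when lower values were set to 100, with the trend and robust prior and with only the 6 arrays of both genotypes. Without Keap1-HKO replicate 1, 18 of the 19 were called.

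Further rises started from measured levels. Hsd17b6, a hydroxysteroid dehydrogenase, read 9.88, 9.23 and 8.79 on the wild-type arrays and 11.72, 11.33 and 11.89 on the Keap1-HKO arrays, and was 5.09-fold higher (log2 difference 2.35, SE 0.36, adjusted p = 0.00564). Plekhb1, a pleckstrin homology domain protein, read 7.84, 6.87 and 7.43 against 10.14, 9.19 and 9.36, a 4.54-fold difference (log2 difference 2.18, SE 0.28, adjusted p = 0.00245). Fitm1, a protein of lipid droplet formation, read 8.80, 7.97 and 8.26 against 11.42, 9.83 and 9.96, a 4.16-fold difference (log2 difference 2.06, SE 0.46, adjusted p = 0.0332). In each of the 3 genes the groups were apart, although the highest Fitm1 value came from Keap1-HKO replicate 1 and the log2 difference without that array was 1.55 (adjusted p = 0.0491). The Fitm1 call ended without any 1 of 7 other arrays, the 3 wild-type and 3 Keap1-KD arrays and Nrf2-null replicate 2. Among genes singled out after their values were seen, Slc20a1, a phosphate transporter, Fkbp5, a cochaperone of steroid receptors, and Mvp, the major vault protein, rose by 1.90 (adjusted p = 0.00345), 1.73 (adjusted p = 0.000265) and 1.55 (adjusted p = 0.00297), and all 3 calls held whichever array was left out.

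The 262 genes over an intensity of 100 in wild-type but not in Keap1-HKO mice include 24 called falls, and several of the steepest falls described next are among them. Cyp7a1, the rate-limiting enzyme of bile acid synthesis, read 9.03, 8.51 and 10.03 on the wild-type arrays and 5.11, 6.97 and 6.23 on the Keap1-HKO arrays. It was at least 6.44-fold lower (log2 difference −3.08, SE 0.66, adjusted p = 0.0291), while its other probe set differed by −1.21. The groups were apart but each was spread widely, and the call held in 6 of the 12 fits that each left out 1 array, ending without Keap1-HKO replicates 1 and 3, Keap1-KD replicate 1 and the 3 wild-type arrays, and also with array weights and with only the 6 arrays of both genotypes. Slc3a1, the heavy subunit of a transporter of cystine and dibasic amino acids, read 7.74, 8.16 and 8.08 against 6.18, 5.04 and 5.07, and was at least 2.57-fold lower (log2 difference −2.56, SE 0.31, adjusted p = 0.00145). Avpr1a, the vasopressin receptor of hepatocytes, read 7.83, 8.51 and 8.10 against 5.73, 5.85 and 5.53, and was at least 2.89-fold lower (log2 difference −2.45, SE 0.23, adjusted p = 0.000265). The calls of Slc3a1 and Avpr1a held under all alternatives run.

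Enho encodes the secreted peptide adropin and read 7.70, 8.61 and 8.64 against 6.23, 5.94 and 5.72, at least 3.32-fold lower (log2 difference −2.35, SE 0.42, adjusted p = 0.0115), a call that ended without wild-type replicate 2 or 3 and with array weights. Chic1 read 7.71, 7.49 and 7.48 against 2.89, 4.84 and 4.49, and Spsb4, a SOCS box protein, read 7.25, 6.74 and 7.06 against 4.56, 4.28 and 3.71. They fell by 3.48 (SE 0.48, adjusted p = 0.00334) and 2.83 (SE 0.23, adjusted p = 7.73e-05), at least 1.89-fold and 1.31-fold. Both wild-type groups lay not far above the limit of 6.64, and both calls ended when lower values were set to it (adjusted p = 0.095 and 0.255). Grk5, a G protein-coupled receptor kinase, Dpy19l3, a mannosyltransferase, and Dixdc1, a protein of Wnt signaling, fell by 2.23, 2.13 and 2.06 (adjusted p = 0.0181, 0.0035 and 0.0332), at least 2.18-fold, 1.73-fold and 2.43-fold. The Dpy19l3 call held whichever array was left out, the Grk5 call ended without Keap1-HKO replicate 2 or 3 or any 1 of the wild-type arrays, and the Dixdc1 call held in 3 of the 12 fits, those without Keap1-HKO replicate 3, Nrf2-null replicate 1 or Nrf2-null replicate 3. The Grk5 and Dpy19l3 calls also ended when lower values were set to 100 (adjusted p = 0.133 and 0.136) and with a second quantile normalization, as the Dixdc1 call did with the latter. Gm2788 and Adh6-ps1, annotated as a predicted gene and a pseudogene, fell by 2.48 and 2.26 (adjusted p = 0.000104 and 0.00642), at least 1.26-fold and 1.02-fold. Both calls ended when lower values were set to 100 (adjusted p = 0.368 and 0.78), that of Gm2788 also with a second quantile normalization and that of Adh6-ps1 with only the 6 arrays of both genotypes. Pseudogene probes can also catch RNA of related genes. The paper lists alcohol dehydrogenases, with a gene written Adh6-psi, among phase-I genes that stayed unchanged as Nrf2 activity rose. They count here as outside the drug-processing families. For Mmd2, which fell by 2.58 (adjusted p = 0.0211), both group means lay under an intensity of 100 and no fold is given. Its call ended without Keap1-HKO replicate 2 (adjusted p = 0.0555) or 3 (adjusted p = 0.0683), without wild-type replicate 2 or 3, when lower values were set to 100, with a second quantile normalization, with array weights, with Keap1-HKO replicate 1 alone and with only the 6 arrays of both genotypes, and its other probe set differed by −0.90.

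Growth hormone sets the level of many secreted and steroid-metabolizing proteins of the male liver. Of 16 measured members of the growth hormone and IGF axis, 4 were called lower and 0 higher, where 1.84% of all genes were called lower. The list was drawn up by topic, whichever way growth hormone moves its members, so that their falls do not measure growth hormone action. In each Keap1-HKO mouse 7 members lay lower than in any wild-type mouse (as did 14.9% of all genes), and the median log2 difference was −0.53. Igfbp2, an IGF-binding protein secreted by hepatocytes, read 11.71, 12.13 and 11.85 on the wild-type arrays and 9.78, 9.29 and 10.09 on the Keap1-HKO arrays, and was 4.53-fold lower (log2 difference −2.18, SE 0.29, adjusted p = 0.00262). This call held under all alternatives run. Serpina12, the adipokine vaspin, read 12.41, 12.73 and 12.71 against 10.97, 11.11 and 9.90, and was 3.87-fold lower (log2 difference −1.95, SE 0.34, adjusted p = 0.0106), with the call lost without wild-type replicate 2 or 3. Hsd3b5, a steroid dehydrogenase typical of male mouse liver, read 13.30, 13.61 and 13.60 against 12.59, 11.97 and 11.70, a 2.67-fold difference (log2 difference −1.42, SE 0.21, adjusted p = 0.00521). Ghr, the growth hormone receptor, read 13.81, 13.68 and 13.58 against 13.13, 13.09 and 13.26, and fell by 0.53 (SE 0.11, adjusted p = 0.0275). The Ghr call ended without Keap1-HKO replicate 2, Keap1-KD replicate 2 or 3 or any 1 of the wild-type arrays, and its other probe sets differed by −1.57 and −0.47. Igf1 itself, named after its values were seen, differed by −0.44 (SE 0.15, adjusted p = 0.154), and it was called without Keap1-HKO replicate 1 (adjusted p = 0.0342). Lifr, the receptor of leukemia inhibitory factor and also singled out afterwards, fell by 1.52 (SE 0.25, adjusted p = 0.00766).

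Lipid synthesis moved in part. Of 27 measured genes of fatty acid and triglyceride synthesis 1 was called higher and 3 lower, where 2.10% and 1.84% of all genes were. The median log2 difference was −0.41, and 9 members lay lower with no overlap of arrays, where 14.9% of all genes did. With Keap1-HKO replicate 1 as the only array of its genotype the median was 0.11, beside 0.12 over all genes. Without that array it was −0.51, with 3 members called higher and 4 lower. Scd1, the desaturase that makes monounsaturated fatty acids, read 15.44, 15.05 and 15.36 against 13.72, 13.04 and 14.16, and was 3.11-fold lower (log2 difference −1.64, SE 0.24, adjusted p = 0.00481). The Scd1 call ended with the most variable probe set and with only the 6 arrays of both genotypes. Elovl2, an elongase of polyunsaturated fatty acids, read 13.29, 13.31 and 13.35 against 11.16, 12.51 and 12.29 and fell by 1.33 (SE 0.29, adjusted p = 0.0321). Elovl5, another such elongase, read 13.31, 12.86 and 13.29 against 11.91, 11.57 and 12.26 and fell by 1.24 (SE 0.24, adjusted p = 0.0192). Elovl5 lost its call without Keap1-HKO replicate 2 or wild-type replicate 1 or 3, and Elovl2 without any 1 of the wild-type or Keap1-KD arrays or Nrf2-null replicate 2. Lpin2, a phosphatidate phosphatase, rose by 0.70 (SE 0.15, adjusted p = 0.0268), a call that ended without Keap1-HKO replicate 2, Keap1-KD replicate 3 or any 1 of the wild-type arrays, while its other probe set differed by 0.34. Of 19 genes of cholesterol synthesis and uptake, Sc5d, a sterol desaturase of the late pathway, was the 1 called, with a fall of 1.23 (SE 0.20, adjusted p = 0.00766). The Sc5d call ended with the most variable probe set and with only the 6 arrays of both genotypes (largest adjusted p 0.176). Of 33 genes of fatty acid oxidation and ketogenesis 0 were called, with 4 higher and 2 lower at an unadjusted p under 0.05, 1 and 1 by Duncan's test and a median of 0.05.

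Glycogen genes moved both ways. Of 20 genes of glucose and glycogen metabolism 2 were called higher and 2 lower, where 2.10% and 1.84% of all genes were. Gbe1, the glycogen branching enzyme, read 10.44, 9.91 and 10.16 on the wild-type arrays and 11.22, 11.81 and 11.71 on the Keap1-HKO arrays, and was 2.66-fold higher (log2 difference 1.41, SE 0.22, adjusted p = 0.00585). Ppp1r3b, which targets a phosphatase to glycogen and favors its synthesis, read 10.97, 10.52 and 10.36 against 8.98, 9.32 and 9.25, and was 2.70-fold lower (log2 difference −1.43, SE 0.24, adjusted p = 0.00849). Neither call ended when any 1 array was left out. Pgm1, phosphoglucomutase, rose by 0.69 (SE 0.16, adjusted p = 0.0389) and Pygl, the liver glycogen phosphorylase, fell by 0.43 (SE 0.10, adjusted p = 0.0395), and each of these calls held in 2 of the 12 fits that left out 1 array. For Pgm1 these were the fits without Keap1-HKO replicate 2 or Nrf2-null replicate 1, and for Pygl those without Keap1-HKO replicate 1 or Nrf2-null replicate 1.

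Secreted and metabolic liver proteins held few calls, all of them lower. In complement and coagulation 2 of 36 genes were called, both lower, where 1.84% of all genes were called lower. With no overlap of arrays 13 lay lower and 0 higher, where 14.9% and 12.7% of all genes did. At an unadjusted p under 0.05 by limma, 8 were lower and 0 higher, where 9.39% of all genes were lower. The median log2 difference was −0.19, and −0.06 with Keap1-HKO replicate 1 as the only array of its genotype. C6 and C8b, components of the membrane attack complex, fell by 1.43 (SE 0.28, adjusted p = 0.0186) and 1.06 (SE 0.16, adjusted p = 0.00542), and the C6 call ended without any 1 of the wild-type arrays. Of 34 genes of the urea cycle and amino acid degradation 2 were called lower, where 1.84% of all genes were. In this list 12 lay lower and 0 higher with no overlap, where 14.9% and 12.7% of all genes did. At an unadjusted p under 0.05 by limma, 12 were lower and 0 higher. The median was −0.26, and 0.01 with Keap1-HKO replicate 1 alone. Cbs, cystathionine beta-synthase, which leads methionine sulfur toward cysteine, read 10.97, 10.87 and 10.94 against 10.25, 9.57 and 9.89, and fell by 1.02 (SE 0.16, adjusted p = 0.00731). Kynu, a kynureninase of tryptophan breakdown, fell by 0.62 (SE 0.15, adjusted p = 0.0453), in 1 of the 12 fits that left out 1 array, that without Keap1-HKO replicate 3. Apolipoproteins (21 genes), the circadian clock (11) and cell division (6) held 0 calls by limma. Unadjusted p under 0.05 gave them 0, 1 and 1 higher and 5, 2 and 0 lower, and Duncan's test 0, 0 and 1 higher and 4, 2 and 0 lower.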

How the data were processed

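Liver mRNA of 12 mice of 4 genotypes (n = 3) was measured on 1-color Affymetrix arrays. The authors normalized the scanner files with gcRMA in R and deposited log2 intensity values, after removing probe sets whose group means all lay under an intensity of 100. gcRMA subtracts background by probe sequence and equalizes the arrays by quantiles, which ties the values of 1 array to all others. Low values can lie at a floor. The lowest value was 2.29, and the wild-type SD was 0 for Spink1 and 0.004 for Slc1a1. For such genes the floor enters both the log2 difference and the spread behind the adjusted p. Of 9622 deposited probe sets, 8554 had exactly 1 gene symbol, and for each of 5856 genes the one with the highest mean was used (1869 genes had several), with 5846 gene IDs matched in RefSeq. The number of arrays limits the precision, and the median SD within genotypes was 0.291.

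Genes were tested in R 4.3.3 with limma 3.58.1 (lmFit, eBayes) on all 12 arrays in 4 groups (8 residual and 2.19 prior degrees of freedom), Keap1-HKO minus wild-type, with Benjamini-Hochberg adjustment over 5856 genes and calls under 0.05. Folds are 2 to the power of the log2 difference, unless 1 group mean lay under 100, where bounds are given. The scripts were tested on simulated data. The genes named were Keap1, Nfe2l2, the 15 largest called rises and falls outside the drug-processing families with no overlap of arrays, all called members of stress lists (otherwise up to 4 members by adjusted p) and up to 4 of each liver list. Of 942 list entries 623 were measured. The members, lists and rules were chosen with earlier results of these data known. Alternatives were other probe sets, filters, scalings, variance models and array subsets, a replicate block and the methods' Duncan's multiple range test. Scanner files were not used here.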

Additional observations from a re-analysis of the deposited data

How the results depend on the processing

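With 3 arrays a genotype, small changes can miss the test, and the spread of each gene is taken over all 4 genotypes, so that the count of calls depends on arrays of every group. Against 123 higher and 108 lower genes, the fit of only the 6 arrays of both genotypes called 33 and 16, Duncan's multiple range test without adjustment over genes 334 and 369, array weights (whose estimation did not converge) 137 and 181, leaving out both arrays that stand apart (replicates 1 of Keap1-HKO and Nrf2-null) 276 and 395, and Keap1-HKO replicate 1 as the only array of its genotype 1558 and 1495. Leaving out 1 of the 12 arrays gave 55 to 140 higher and 34 to 139 lower, with the fewest without wild-type replicates 3 (55 and 34), 2 (65 and 40) and 1 (73 and 59) and with 70 lower without Keap1-KD replicate 3. Apart from these and the replicate block, the alternatives stayed within 1.5 times both counts. All 231 called genes kept their direction in each alternative that tested them, except 1 with a difference of 0 when lower values were set to an intensity of 100. With the replicate block 203 genes were higher and 178 lower, with 229 of the 231 kept. Samples of the same number are not known to be paired, and the deviations of Keap1-HKO and wild-type arrays of the same number correlated with r of 0.33, 0.39 and −0.16. Direction turned for 3 named genes that were not called, Gpt2 with the most variable probe set (0.53), Tk1 with Keap1-HKO replicate 1 alone (0.26) and Xpc with array weights (−0.040).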

Other observations

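Probe sets that list several genes or none were fitted beside the single genes, and 34 of 1024 were called (3.32%), 15 with several symbols and 19 with none. The set shared by Cyp2a5 and Cyp2a4 rose by 3.44 on the log2 scale and that shared by Gsta1, Gsta2 and Gm3776 by 4.12. The set of the ferritin light chain gene Ftl1 and its pseudogene Ftl1-ps2 rose by 0.63, and that of Esd, an esterase, and Esd-ps by 0.94. The set of the class I histocompatibility genes H2-Q7 and H2-Q9 fell by 2.42. Such sets cannot be assigned to 1 of their genes.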
